A study of Mus musculus with 4 samples.

Results

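The mitochondrial ribosomal protein genes were compared between hematopoietic stem cells and multipotent progenitors of C57BL/6 mice. A probe set was taken as a member where the platform annotation of the array names exactly 1 gene and that gene's symbol is Mrpl or Mrps followed by a number. This gave 156 of the 45037 probe sets on the array without controls, 104 for Mrpl and 52 for Mrps symbols. They stand for 76 genes, 47 Mrpl and 29 Mrps, of 18193 genes with a probe set of their own. The hematopoietic stem cells (HSC) were CD34(-)KSL cells and the multipotent progenitors (MPP) were CD34(+)KSL cells, both purified by cell sorting. Both groups shared the KSL gate, which selects on c-Kit and lineage markers among others, and differed in CD34. Each group had 2 biological replicates, each on its own Affymetrix Mouse Genome 430 2.0 array. The labels do not say whether replicates came from separate or pooled animals, and no age is used here. The p-values thus speak of the spread among these 4 samples only.

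The mitochondrial ribosome translates the few messages encoded by mitochondrial DNA, all of them for core subunits of the respiratory chain and the ATP synthase. Its ribosomal RNAs come from mitochondrial DNA, but every one of its proteins is encoded in the nucleus, made in the cytosol and imported. The large subunit (mostly Mrpl proteins) forms the peptide bond, and the small subunit (mostly Mrps proteins) binds and decodes the message. Some of the proteins have counterparts in bacterial ribosomes and others are found only in mitochondria. Loss of mitochondrial translation blocks assembly of the respiratory chain, and HSC are known for drawing less on respiration than their progeny do.

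Most of these genes differed little between the groups, and with the values as deposited those that passed the test were all in the large subunit. Of the 76 genes, 4 fell in HSC (Mrpl12, Mrpl18, Mrpl11 and Mrpl42), 1 rose (Mrpl52) and 71 did not pass limma's test at an adjusted p of 0.05. Over all 12382 genes tested, 5.9% were called lower in HSC and 7.71% higher, 13.6% in either direction. The 4 lower calls are 5.26% of the members and the 1 higher call is 1.32%, so the lower share lies near its background and the higher share below it. The median log2 difference, HSC minus MPP, was -0.20 over the 76 members and 0.10 over all genes tested, and 60 members (78.9%) lay below 0, against 42.3% of all genes. With the array medians made equal, the median over all genes moved to -0.14 and 13 members fell and 0 rose, against 10.9% of all genes lower and 5.01% higher at that setting. In these bulk samples, fewer cells of a type and less RNA per cell cannot be told apart.

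The arrays bear on every value below. Over the whole table, the median signal was 26.1 and 26.9 for HSC, against 22.0 and 21.3 for MPP. Correlations were 0.949 between HSC arrays, 0.966 between MPP arrays and 0.903 to 0.916 across groups, over the 27022 probe sets tested. HSC replicate 2 stood apart in the ratio of 3' over 5' actin signal, a sign of RNA length, at 9.42, against 5.26 on HSC replicate 1 and 4.99 and 5.01 in MPP. Sort labels were borne out by markers: 4 of 4 HSC markers (Slamf1, Procr, Mllt3, Mecom) were higher in HSC, and 3 of 3 MPP markers (Cd34, Flt3, Cd48) were lower. Kit, the gate's receptor, was higher in HSC (0.65 in log2, limma adjusted p = 0.0328). Markers of dividing cells (Mki67, Top2a, Cdk1) were lower in HSC for 3 of 3 measured, with summed intensities of 1405 and 1169 on HSC arrays against 6990 and 5873 on MPP arrays. Summed myeloid markers were 263 and 162 in HSC against 4919 and 6230 in MPP, with 2 of 4 called. Erythroid markers summed to 862 and 1450 in HSC against 83.7 and 73.0 in MPP (2 of 3 measured called), and megakaryocyte markers to 1899 and 1892 in HSC against 494 and 347 in MPP (3 of 4 called). None of the 3 measured B cell or 4 T cell markers was called, and Cd79a, Cd3e, Cd3d and Cd3g lay under the floor on every array. The floor is an array's highest signal among 27 Bacillus control probe sets. The part of dividing, myeloid, erythroid or megakaryocyte cells in the results below was not tested.

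The promoters of 4 of the 5 called genes are shown because each holds a match to a motif of a factor known to act on nuclear genes of mitochondrial proteins. They are RefSeq windows of GRCm38.p6, 250 bases before to 50 bases after the gene start, read on the gene's own strand, 5′ to 3′. Capitals mark the motif matches, found on either strand: GCGCNTGCG for NRF1, CCGGAAG for ETS factors such as GABP, and AAGATGGCG for YY1. No part of one motif overlaps another in these 4 windows.
Mrpl12 (chr11:120484387-120484686, plus strand): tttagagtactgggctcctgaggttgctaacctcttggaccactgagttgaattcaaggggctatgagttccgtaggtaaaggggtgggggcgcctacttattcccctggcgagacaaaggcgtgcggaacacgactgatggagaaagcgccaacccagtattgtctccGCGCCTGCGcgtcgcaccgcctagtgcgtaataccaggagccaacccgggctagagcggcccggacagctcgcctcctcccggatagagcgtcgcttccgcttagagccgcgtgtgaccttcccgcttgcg
Mrpl18 (chr17:12916042-12916341, minus strand): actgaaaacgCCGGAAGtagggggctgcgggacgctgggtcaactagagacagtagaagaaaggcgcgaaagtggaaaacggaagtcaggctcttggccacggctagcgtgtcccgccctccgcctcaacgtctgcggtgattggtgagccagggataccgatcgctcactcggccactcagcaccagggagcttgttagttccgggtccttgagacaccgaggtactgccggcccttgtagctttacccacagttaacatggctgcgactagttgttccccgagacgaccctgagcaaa
Mrpl42 (chr10:95501900-95502199, minus strand): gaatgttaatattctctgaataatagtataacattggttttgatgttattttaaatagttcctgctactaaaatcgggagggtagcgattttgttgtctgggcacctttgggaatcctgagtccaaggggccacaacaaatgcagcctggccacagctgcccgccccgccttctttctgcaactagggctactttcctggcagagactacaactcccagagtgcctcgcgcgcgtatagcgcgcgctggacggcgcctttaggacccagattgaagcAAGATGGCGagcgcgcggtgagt
Mrpl52 (chr14:54426659-54426958, plus strand): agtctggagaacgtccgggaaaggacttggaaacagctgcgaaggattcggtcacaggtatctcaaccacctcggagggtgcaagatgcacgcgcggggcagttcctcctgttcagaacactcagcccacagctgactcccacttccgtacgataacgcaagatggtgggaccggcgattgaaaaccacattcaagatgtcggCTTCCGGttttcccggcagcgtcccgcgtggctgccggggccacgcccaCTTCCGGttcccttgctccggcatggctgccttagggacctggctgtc

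The NRF1 match of Mrpl12 begins at position -81 relative to the start and the ETS match of Mrpl18 at -240. The YY1 match of Mrpl42 begins at position 28, downstream of the start. Mrpl52 holds 2 ETS matches on the opposite strand, at -47 and 3. The window of Mrpl11 holds none of these letters. Of the 76 members, 67 have such a window, and 41 of them (61.2%) hold at least 1 of the motifs, against 32.9% of the 10042 tested genes with a window and 16.6% of all 27025 windows. By motif, ETS was found in 25 members (37.3%, against 19.5% of tested genes), NRF1 in 17 (25.4%, against 14.9%) and YY1 in 8 (11.9%, against 3.46%). Median GC content was 58.3% in the members and 60.7% in the tested genes. The large subunit had 14 ETS, 12 NRF1 and 4 YY1 windows of 41, and the small subunit 11, 5 and 4 of 26. ETS letters are thus held by Mrpl52, which rose, and by Mrpl18, which fell, and a match is a description of the sequence, not a site in use.

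Mrpl12 is the L7/L12 stalk protein, which contacts the translation factors as they work on the large subunit. Its intensity was 294 and 205 on the HSC arrays, against 518 and 448 on the MPP arrays. Both HSC arrays lay below both MPP arrays. HSC minus MPP came to -0.96 on the log2 scale (SE 0.21, limma adjusted p = 0.0169), or 1.94-fold lower in HSC on the scale of log2(intensity + 6.01). This scale is used for every difference here, and its added constant understates changes of dim signals.

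Mrpl11 sits at the base of the same stalk. Its brightest probe set had 437 and 265 in HSC, against 687 and 557 in MPP, with no overlap and a wide gap between the HSC arrays. It differed by -0.85 in log2 (SE 0.24, limma adjusted p = 0.0462). Of the stalk genes, Mrpl10, which anchors the L7/L12 copies, had 133 and 109 in HSC against 145 and 150 in MPP, a log2 difference of -0.28 that did not pass. The called probe set is of the _x_at kind, whose probes can share sequence with other transcripts. Its other 3 tested probe sets had differences of -0.15, -0.14 and 0.16, none of them called, and the first of these had 329 and 311 in HSC against 394 and 323 in MPP. That probe set overlapped between the groups.

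Mrpl18, the counterpart of bacterial L18, lies in the central protuberance, the part of the large subunit that faces the head of the small one. Its intensity was 238 and 308 in HSC, against 547 and 496 in MPP. The groups were well apart, with -0.93 in log2 (SE 0.19, limma adjusted p = 0.0122), 1.90-fold lower in HSC. The other genes assigned to the protuberance here did not pass. Mrpl40 stood at -0.22, Mrpl48 at -0.11, Mrpl46 at -0.09 and Mrpl38 at -0.04 on the log2 difference scale. The assignment came from general knowledge and may leave out genes.

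Mrpl42 is a mitochondria-specific protein of the large subunit. It had 273 and 218 in HSC, against 399 and 410 in MPP, without overlap. In log2 it differed by -0.72 (SE 0.19, limma adjusted p = 0.0390), 1.64-fold lower in HSC. Mrpl36, the small zinc-binding protein with a bacterial counterpart, had 168 and 167 in HSC against 288 and 254 in MPP. Its arrays did not overlap either, but its -0.67 in log2 (SE 0.20, limma adjusted p = 0.0568) missed the threshold. Mrpl2, next to the peptidyl transferase centre, had 277 and 126 in HSC against 382 and 247 in MPP, and there HSC replicate 1 lay above MPP replicate 2 (log2 difference -0.70, SE 0.33, adjusted p = 0.233).

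Mrpl52, a further mitochondria-specific protein of the large subunit, was the only member called higher in HSC at these settings. It had 851 and 1124 in HSC, against 611 and 539 in MPP. Both HSC arrays lay above both MPP arrays. In log2 it differed by 0.76 (SE 0.18, limma adjusted p = 0.0247), 1.70-fold higher in HSC. Its 3 other tested probe sets also lay higher on both HSC arrays, at 0.63 (adjusted p = 0.101), 0.61 (adjusted p = 0.126) and 1.43 (adjusted p = 0.0715). The last of these was under the floor on both MPP arrays, so it shows only a signal at least 1.90-fold higher in HSC.

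**Figure D1:**
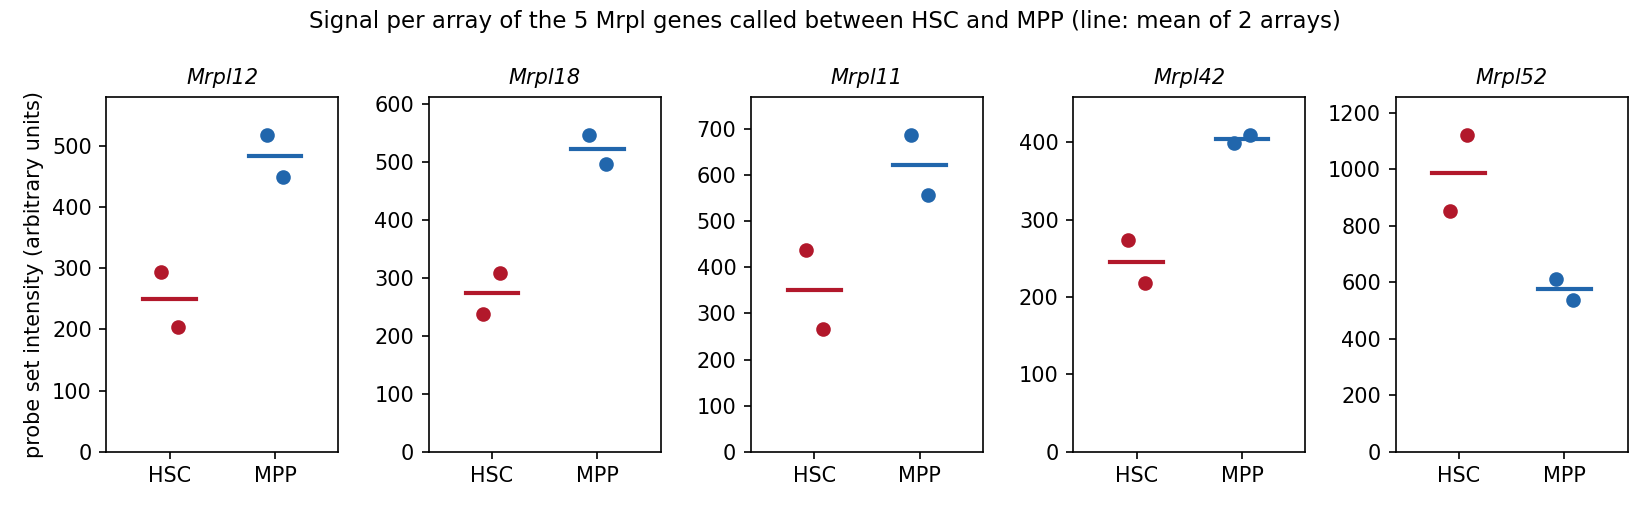
Probe set intensity in arbitrary units (y axis, from 0) on each array for the 5 called genes, HSC left of MPP, with a line at the mean of the 2 arrays of a group. Mrpl12, Mrpl18, Mrpl11 and Mrpl42 have both HSC points under both MPP points, and Mrpl52 has them above.

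No Mrps gene passed the test in either direction. The smallest adjusted p of the 29 was 0.0679, and at an unadjusted p of 0.05 limma gave 5 lower and 0 higher (14 lower and 1 higher over all 76 members, against 11.8% lower and 16.9% higher of all genes tested). Under other settings some small subunit genes passed as lower. They were Mrps14, Mrps15, Mrps18c and Mrps22 with equal array medians, and Mrps18c and Mrps28 with a replicate block. Mrps14 and Mrps18c also passed without HSC replicate 2, Mrps28 without HSC replicate 1, and Mrps18c with the probe sets of a gene averaged. Whether the subunits differ in how many genes pass was not tested. The gene nearest the threshold was Mrps18c, the S18 protein of the small subunit, with 453 and 525 in HSC against 825 and 658 in MPP (log2 difference -0.59, SE 0.18). Its paralogue Mrps18b, also in the small subunit, had 205 and 250 in HSC against 282 and 282 in MPP, at -0.31. The paralogue Mrps18a, which in the solved structures belongs to the large subunit, had 155 and 176 in HSC against 176 and 175 in MPP, at -0.09. The S18 paralogues thus lay on one side of 0, with overlapping groups in Mrps18a alone, and none of them passed.

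Among the other low members of the small subunit, Mrps28, the counterpart of bacterial S1, had 241 and 138 in HSC against 339 and 250 in MPP (-0.66 in log2, SE 0.27, limma adjusted p = 0.167). Mrps14, the S14 protein of the subunit's head, had 728 and 802 in HSC against 1172 and 989 in MPP (-0.49, adjusted p = 0.0922). Neither gene's groups overlapped. Mrps22, a mitochondria-specific protein, had 263 and 318 in HSC against 417 and 382 in MPP, a log2 difference of -0.46. Mrps15 had 489 and 398 in HSC against 544 and 673 in MPP, at -0.45, and Mrps10 had 194 and 196 in HSC against 251 and 270 in MPP, at -0.41. These too were separated by group without passing the test.

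Some small subunit genes leaned the other way. Mrps5 had 195 and 158 in HSC against 116 and 157 in MPP, a log2 difference of 0.36. Mrps9 had 550 and 554 in HSC against 446 and 543 in MPP, at 0.16. Both have bacterial counterparts, and in both the HSC arrays lay above the MPP arrays by a narrow margin on 1 MPP array. Mrps31 had 355 and 278 in HSC against 299 and 229 in MPP, at 0.26, with overlap. Mrps16 (403 and 327 in HSC against 354 and 304 in MPP, at 0.15) and Mrps12, the decoding-centre protein (288 and 270 in HSC against 270 and 245 in MPP, at 0.11), differed by less than their SE. Mrps30, named for the small subunit but found in the large one, had 383 and 399 in HSC against 316 and 345 in MPP, at 0.24 and without overlap. None of these passed.

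The highest large subunit members after Mrpl52 lay close to 0. Mrpl22 had 554 and 304 in HSC against 341 and 422 in MPP, a log2 difference of 0.11 in which the HSC arrays lay on either side of both MPP arrays. Mrpl23 had 723 and 702 in HSC against 716 and 617 in MPP, at 0.10. Both line the exit of the peptide tunnel, to which 6 genes were assigned here. These ran down to Mrpl45 at -0.41 and Mrpl47 at -0.23, with Mrpl24 and Mrpl17 between at -0.17 and -0.02. None of the 6 was called. Mrpl39 had 1386 and 1950 in HSC against 1740 and 1376 in MPP, at 0.09, and Mrpl44, with an RNase III fold, had 1139 and 1377 in HSC against 1272 and 1110 in MPP, at 0.08. Mrpl35 had 520 and 513 in HSC against 458 and 550 in MPP, at 0.04. The groups overlapped in all 5 of Mrpl22, Mrpl23, Mrpl39, Mrpl44 and Mrpl35. Of the genes named for a high signal, Mrpl24 had 1184 and 1178 in HSC against 1329 and 1328 in MPP (-0.17), and Mrps33 had 520 and 594 in HSC against 695 and 620 in MPP (-0.24), neither of them called.

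By subunit and origin, 25 of the 29 Mrpl genes with a bacterial counterpart lay below 0 and 10 (34.5%) lay lower without overlap. Over all genes tested, 42.3% lay below 0 and 23.4% lay lower without overlap. Among genes tested with a mean level within the members' quartiles, the same shares were 49.4% and 31.2%. Of those Mrpl genes, Mrpl32 had 191 and 193 in HSC against 283 and 272 in MPP (-0.52, adjusted p = 0.121), and Mrpl27 had 416 and 370 in HSC against 355 and 419 in MPP (0.03). The first was separated by group and the second was not. Of the 20 mitochondria-specific proteins found in the large subunit, Mrps18a and Mrps30 included, 16 lay below 0 and 9 (45%) lay lower without overlap. Mrpl58, a peptidyl-tRNA hydrolase that became part of the ribosome, had 232 and 250 in HSC against 370 and 304 in MPP (-0.47, adjusted p = 0.169). Mrpl57 had 587 and 548 in HSC against 771 and 702 in MPP (-0.37, adjusted p = 0.197).

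In the small subunit, 11 of 16 genes with a bacterial counterpart lay below 0 and 9 (56.2%) lay lower without overlap. The share lower without overlap was 23.4% over all genes tested and 31.2% over those with a mean level within the members' quartiles. Mrps21 had 133 and 144 in HSC against 194 and 152 in MPP (-0.30), and Mrps24 had 306 and 473 in HSC against 370 and 363 in MPP (0.05). The HSC arrays of Mrps24 lay on either side of MPP. Of 10 mitochondria-specific genes, 7 lay below 0 and 5 (50%) lay lower without overlap. Mrps34 had 263 and 234 in HSC against 325 and 330 in MPP (-0.39, limma adjusted p = 0.229), and Mrps35 had 198 and 208 in HSC against 195 and 183 in MPP (0.10), a separation smaller than its SE.

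**Figure D2:**
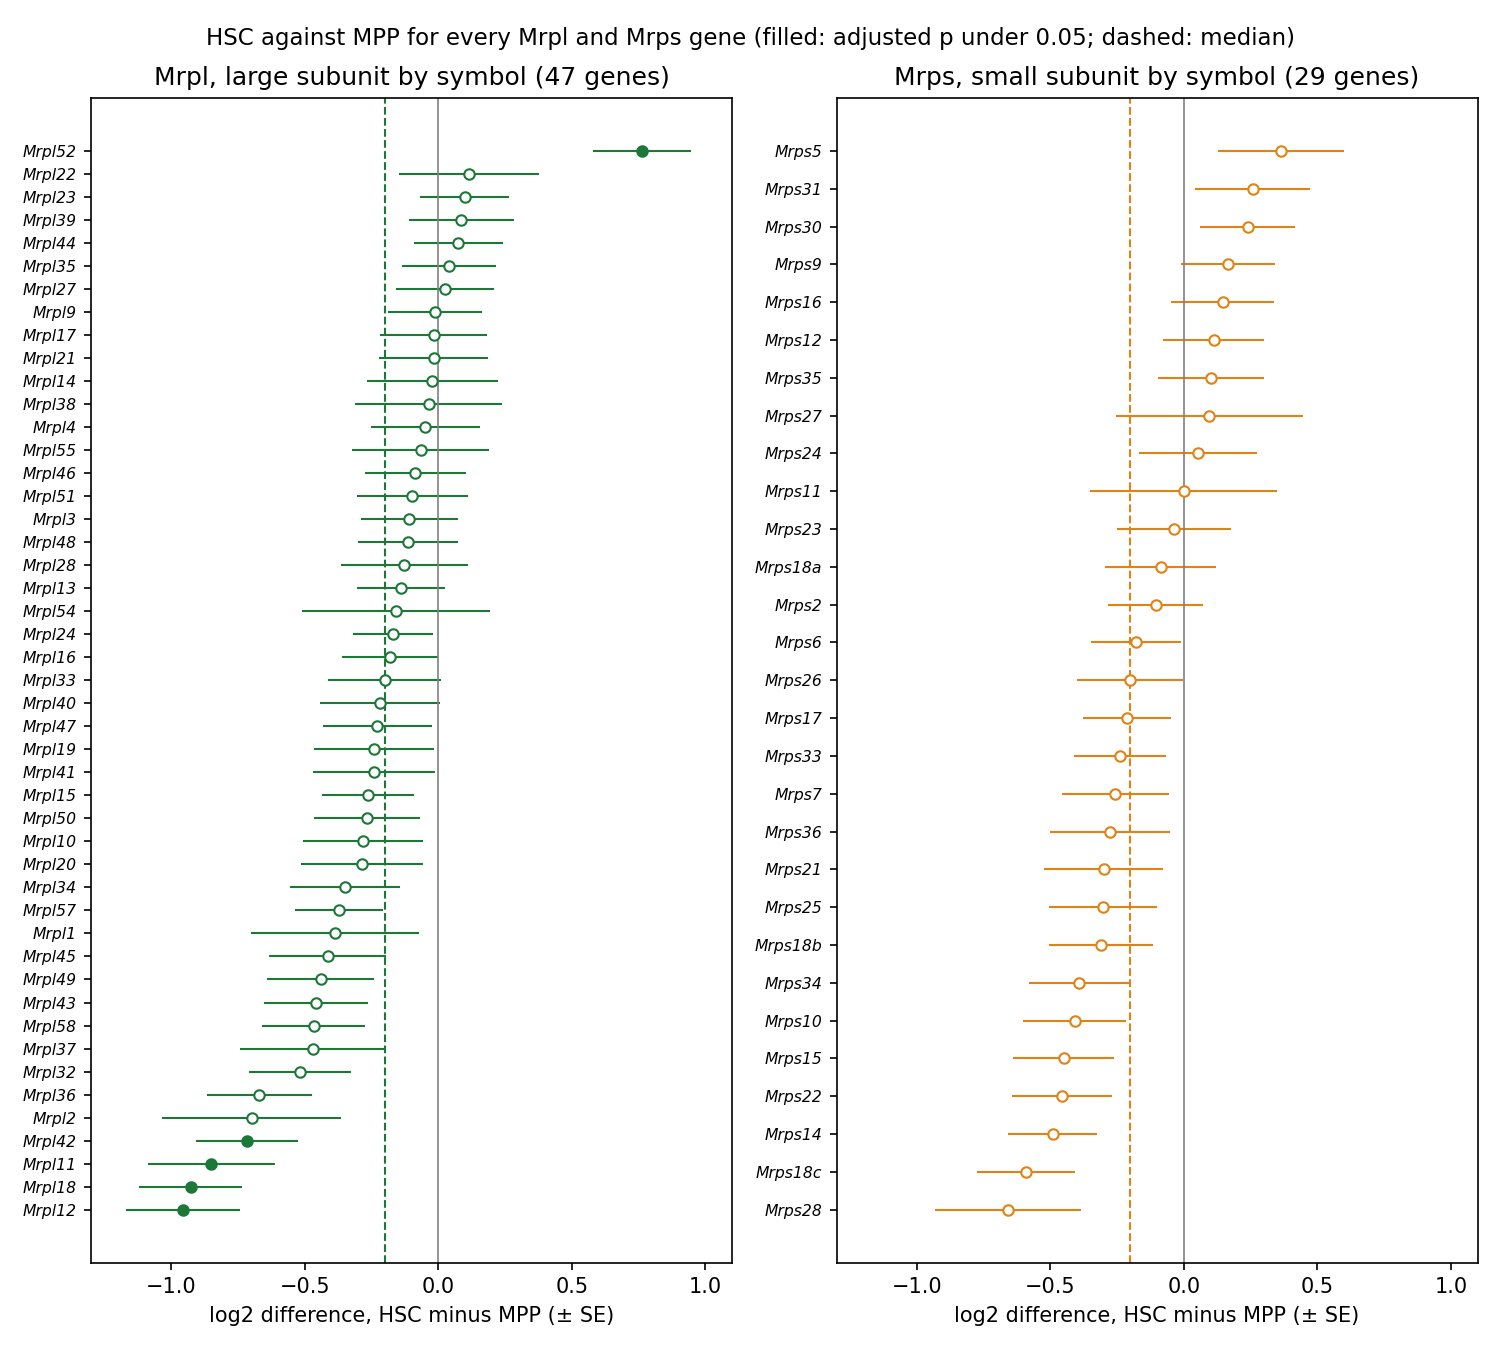
Log2 difference, HSC minus MPP, of all 47 Mrpl genes (left panel) and 29 Mrps genes (right panel), with bars for 1 SE, filled points for the called genes and a dashed line at each median. The 2 dashed lines fall at the same place, -0.20, while the called genes are all in the left panel.

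With the values as deposited, the subunits had the same median. The large subunit had a median log2 difference of -0.20, with 40 of 47 genes (85.1%) below 0, and the small subunit -0.20, with 20 of 29 (69.0%) below 0, so that large minus small came to 0.00. The upper quartile was 0.10 in the small subunit and -0.04 in the large one. On each array, the median deviation of the genes from their own 4-array mean was -0.10 and -0.19 in HSC against 0.12 and 0.09 in MPP for the large subunit. For the small subunit it was -0.08 and -0.08 in HSC against 0.07 and 0.06 in MPP. Both subunits were therefore low on each HSC array and high on each MPP array. The large subunit was lowest on HSC replicate 2, and without that array the large subunit median was -0.18 and the small one -0.18. Without HSC replicate 1 they were -0.27 and -0.17. The small subunit median moved most, to -0.087 with a gene's probe sets averaged (large -0.16), to -0.13 after quantile normalization (large -0.20) and to -0.43 with equal array medians (large -0.43). Median intensities were 269 and 237 in HSC against 355 and 323 in MPP for the large subunit, and 263 and 270 in HSC against 316 and 282 in MPP for the small one.

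Counting arrays in place of calls, both HSC arrays lay under both MPP arrays in 34 of 76 members (44.7%), against 23.4% of all genes tested. They lay over both in 5 members (6.58%: Mrpl52, Mrps5, Mrps9, Mrps30 and Mrps35), against 35.3% of all genes. By subunit, 19 of 47 Mrpl (40.4%) and 15 of 29 Mrps genes (51.7%) lay lower without overlap, and 1 Mrpl and 4 Mrps genes higher. HSC replicate 2 held the lowest value of 34 members and HSC replicate 1 of 28, against 6 and 8 on the MPP arrays. Genes are not independent replicates, and with 2 arrays against 2 the smallest exact 2-sided permutation p is 0.333.

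Signal level moved with the difference over all genes, so the members were also set beside genes of like signal. With all genes in 10 equal groups by mean level, their median difference was -0.10 in the brightest group and 0.23 in the dimmest. In the 3 groups next below the brightest, which hold 54 of the members, the members' medians were -0.18, -0.24 and -0.26 from bright to dim, against -0.07, 0.00 and 0.03 for all genes there. In the brightest group, with 8 members, both medians were -0.10. Among the 2553 genes whose mean level lay within the members' quartiles, the median was 0.00, 49.4% lay below 0, and 31.2% lay lower without overlap and 31.0% higher. The members' lean to lower values thus left a gap of -0.21 to genes of like signal and -0.30 to all genes, and no test was made of either.

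**Figure D3:**
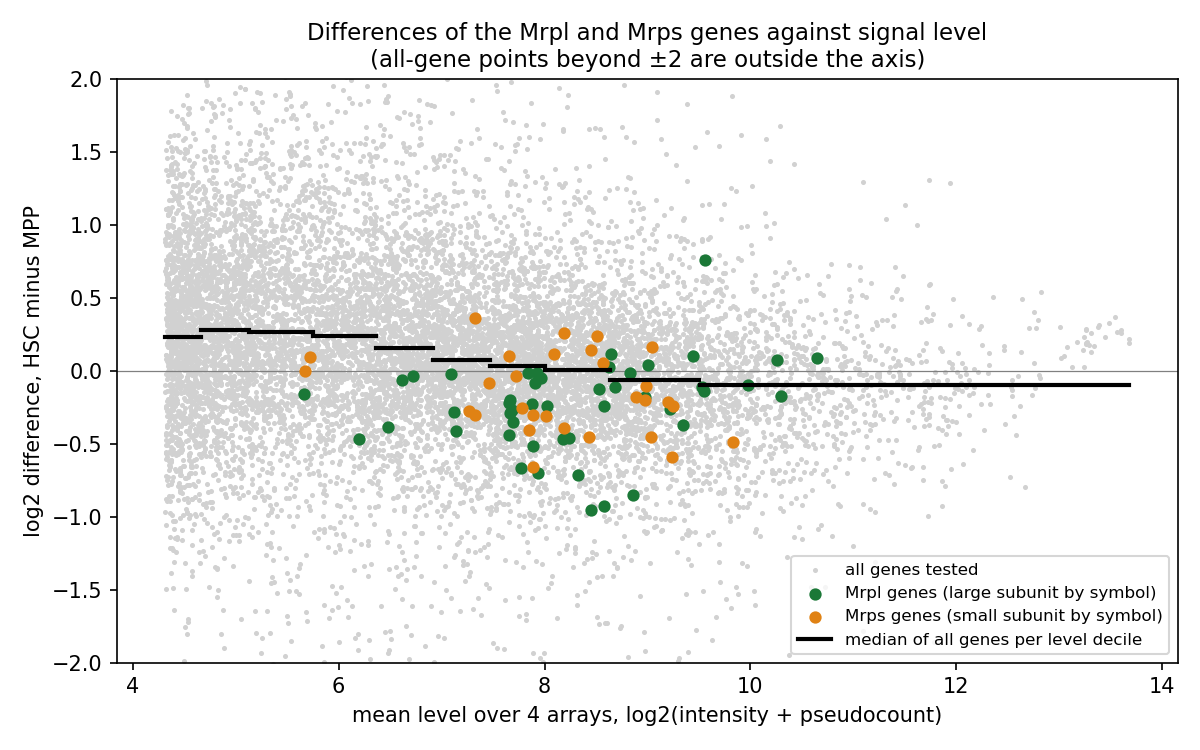
Log2 difference, HSC minus MPP (y axis), against mean level over 4 arrays as log2(intensity + pseudocount) (x axis), for all genes tested (grey), Mrpl genes and Mrps genes, with black bars at the median of all genes in each of the 10 level groups. Members lie under the bars more often than over them except at the bright end.

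Origin divided the members little, and places in the ribosome held few genes each. Genes with a bacterial counterpart had a median log2 difference of -0.18 (45 genes, 3 called lower and 0 higher). Mitochondria-specific genes had -0.21 (30 genes, 1 lower and 1 higher). The lower calls were 6.67% and 3.33% of these, against 5.9% of all genes tested. The higher calls were 0% and 3.33%, against 7.71%. The 3 stalk genes had a median of -0.85, the 6 genes assigned to the tunnel exit -0.09 and the 5 assigned to the central protuberance -0.11. These places came from general knowledge and may leave out genes. The stalk median is the value of the brightest Mrpl11 probe set, of the _x_at kind. That gene's other tested probe sets stood at -0.15, -0.14 and 0.16. Placing Mrps18a and Mrps30 in the large subunit and leaving out Mrps36, a subunit of 2-oxoglutarate dehydrogenase (144 and 124 in HSC against 146 and 182 in MPP, at -0.28), gave medians of -0.18 for 49 large subunit genes and -0.21 for 26 small subunit genes. Of the 76 members, 66 (86.8%) lay within 0.5 of 0. This share was 63.4% over all genes tested and 71.7% over those with a mean level within the members' quartiles. The 95% interval lay within a 2-fold change for 66 members, 38 Mrpl and 28 Mrps. It reached a 2-fold fall for 9 and a 2-fold rise for 1, so for these genes a 2-fold change lies within the error of 4 arrays. SEs ran from 0.15 to 0.35 with a median of 0.20.

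All 76 representative probe sets, the brightest of each gene, were above the floor on all arrays. Of the 156 member probe sets, 142 were tested and 14 lay in the dim part of the table that was left out. Probe set by probe set, 5 were called lower and 1 higher, against 4.65% and 5.96% of the 27022 tested. The fifth lower call was a dim probe set of Mrpl15, the counterpart of bacterial L15. It had 13.0 and 10.7 in HSC, both under the floor, against 44.6 and 50.8 in MPP (limma adjusted p = 0.0240), which shows only that HSC were at least 2.35-fold lower. The brightest Mrpl15 probe set had 579 and 503 in HSC against 613 and 686 in MPP, a log2 difference of -0.26 (adjusted p = 0.390), and a further dim one stood at 0.59 (adjusted p = 0.358). Of the 37 genes with several tested probe sets, 12 had all of them on one side of 0 and 25 had them on both sides. The 66 probe sets that did not represent a gene had a median log2 difference of -0.0012, against -0.20 for the representative ones. It was -0.10 where mean intensity passed 100 (27 probe sets) and 0.17 at or below 100 (39 probe sets). A further 4 probe sets name a member symbol together with another gene and were left out by the rule; they hold the signal of Mrpl30 and Mrpl53, which have no probe set of their own here, and 1 of those for Mrps34, which has another.

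**Figure D4:**
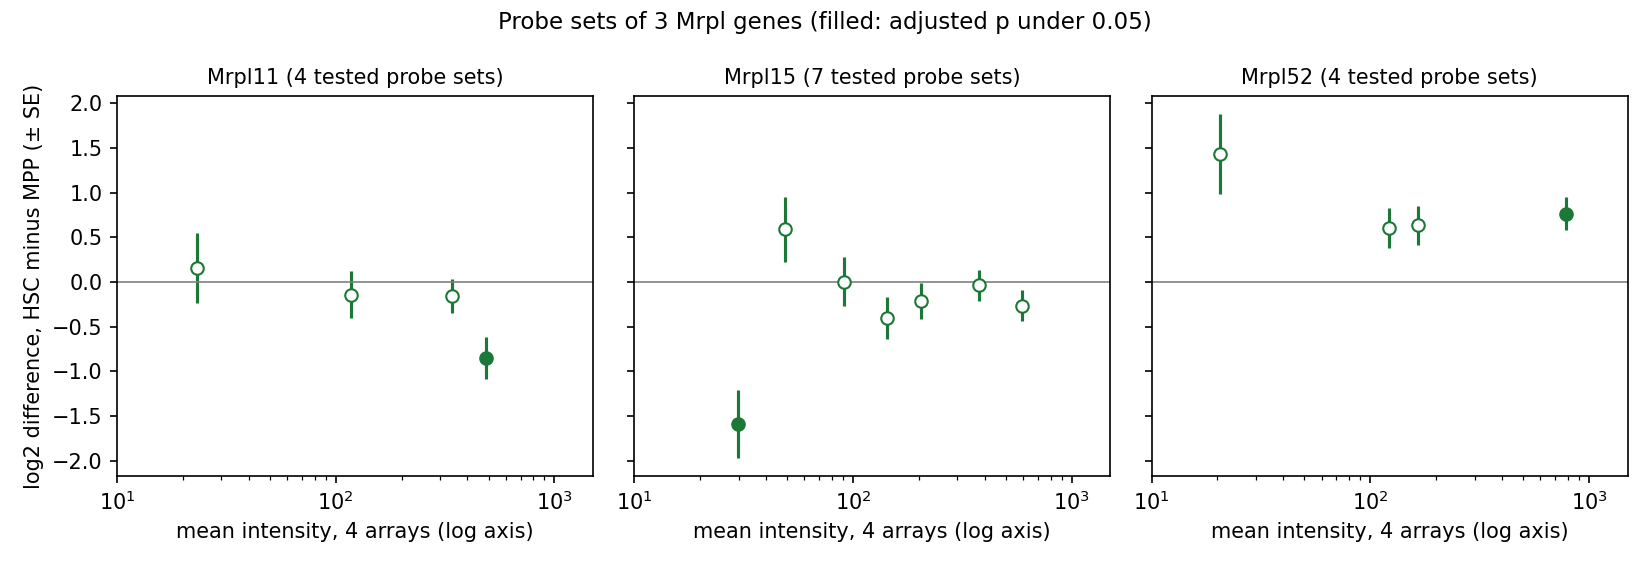
Log2 difference, HSC minus MPP, with bars for 1 SE (y axis), against mean intensity over 4 arrays on a log axis (x axis), for each tested probe set of 3 genes, filled where called. All 4 Mrpl52 probe sets lie above 0, while those of Mrpl11 and Mrpl15 fall on both sides of it.

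Other genes of mitochondrial translation gave few calls, against 5.9% lower and 7.71% higher over all genes tested. In lists this short, those shares come to few calls too. For proteins of the mitochondrial ribosome under other names, 4 were tested of 7 symbols listed, which include older symbols of members. The 4 tested had 0 calls and a median log2 difference of -0.27. The lowest p was in Ptcd3 (162 and 184 in HSC against 239 and 204 in MPP, at -0.35, limma adjusted p = 0.341). Genes of ribosome assembly and rRNA modification (24 tested of 26 symbols, an older one included) had 0 calls and a median of -0.03. Ngrn, an assembly factor, came nearest, with 356 and 382 in HSC against 229 and 245 in MPP, at 0.63 (adjusted p = 0.0552). Translation factors (12 tested of 14) had 0 calls and a median of 0.01, and the elongation factor Gfm1 had 214 and 211 in HSC against 314 and 257 in MPP, at -0.41 (adjusted p = 0.240).

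Of genes for transcription and upkeep of mitochondrial DNA (10 tested of 11 symbols, an older one included), 1 rose (10%). Over all genes tested, 7.71% rose. Polg2, the accessory subunit of the mitochondrial DNA polymerase, had 311 and 287 in HSC against 196 and 161 in MPP. Its groups did not overlap, with 0.73 in log2 (SE 0.20, limma adjusted p = 0.0437). The call was lost with equal array medians (0.50 in log2), after quantile normalization (0.71, adjusted p = 0.0602), and with the difference as it was but no filter (adjusted p = 0.0730) or no variance trend (adjusted p = 0.155). It was also lost without MPP replicate 2 (0.59, adjusted p = 0.306), MPP replicate 1 (0.87, adjusted p = 0.0884) or HSC replicate 1 (0.67, adjusted p = 0.0746). Of 9 nuclear regulators of mitochondrial genes none was called, against 5.9% lower and 7.71% higher of all genes tested. Their median was -0.11. Myc, known to drive genes of ribosomes and mitochondria, had 967 and 1171 in HSC against 1646 and 1482 in MPP, at -0.55 (adjusted p = 0.0593), apart by group but short of the threshold. Ppargc1a, the coactivator PGC-1 alpha, was the 1 gene of the list above 0, with 65.3 and 46.2 in HSC against 6.37 and 27.7 in MPP. Its groups did not overlap, MPP replicate 1 lay under the floor, and the difference of 1.58 (SE 0.49, adjusted p = 0.0660) missed the threshold too.

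Respiratory chain and ATP synthase subunits, whose mitochondrially encoded partners the ribosome makes, had 6 lower (7.79%) and 0 higher calls of 77 tested. Their median log2 difference was -0.17, and 61 genes (79.2%) lay below 0. Cytosolic ribosomal proteins had 0 lower and 1 higher call (2.33%) of 43 tested, a median of 0.19 and 5 genes (11.6%) below 0. Over all genes tested, 5.9% were called lower and 7.71% higher, and 42.3% lay below 0. With the values as deposited, the members thus stood on the side of the respiratory chain and opposite to the cytosolic ribosome. The lists differed in signal level. The median of the mean log2 levels was 8.18 in the members, 9.92 in the respiratory chain and 13.0 in the cytosolic ribosome. The part of signal level in this contrast was not tested. The cytosolic median difference changed with scaling, to -0.04 with equal array medians, -0.00 after quantile normalization and 0.30 after cyclic loess. The respiratory chain median difference was -0.40, -0.13 and -0.11 under these. No test of the lists against each other was made.

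The 5 calls were unequal in how well they held. Mrpl12 and Mrpl18 were called under 12 of 14 alternatives each, with log2 differences of -1.21 to -0.70 and -1.16 to -0.74. Mrpl42 and Mrpl52 were called under 7 each, with differences of -0.95 to -0.56 and 0.53 to 0.96. Mrpl11 was called under 5 and ran from -1.20 to -0.15, losing its call among others with its probe sets averaged (-0.25, adjusted p = 0.389) and without _x_at, _s_at and _a_at probe sets (-0.15, adjusted p = 0.677). Without MPP replicate 1, Mrpl12 stood at -0.85 and Mrpl18 at -0.86. No member kept its call there, and calls over all genes were fewer than as deposited too. Leaving out MPP replicate 2 left only the calls of Mrpl12 and Mrpl18, again with fewer calls over all genes. Without MPP replicate 2, Mrpl11 had an adjusted p of 0.0677, and Mrpl42 stood at -0.70 (adjusted p = 0.208) and Mrpl52 at 0.67 (adjusted p = 0.190). Without HSC replicate 2, the array with the high actin ratio, these genes were at -0.50 (Mrpl11, adjusted p = 0.121), -0.56 (Mrpl42, adjusted p = 0.0904) and 0.56 (Mrpl52, adjusted p = 0.0554), while Mrpl12, Mrpl18, Mrps14 and Mrps18c were called. Equal array medians moved the calls of all genes to 1345 lower and 620 higher, against 731 lower and 955 higher as deposited.

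**Figure D5:**
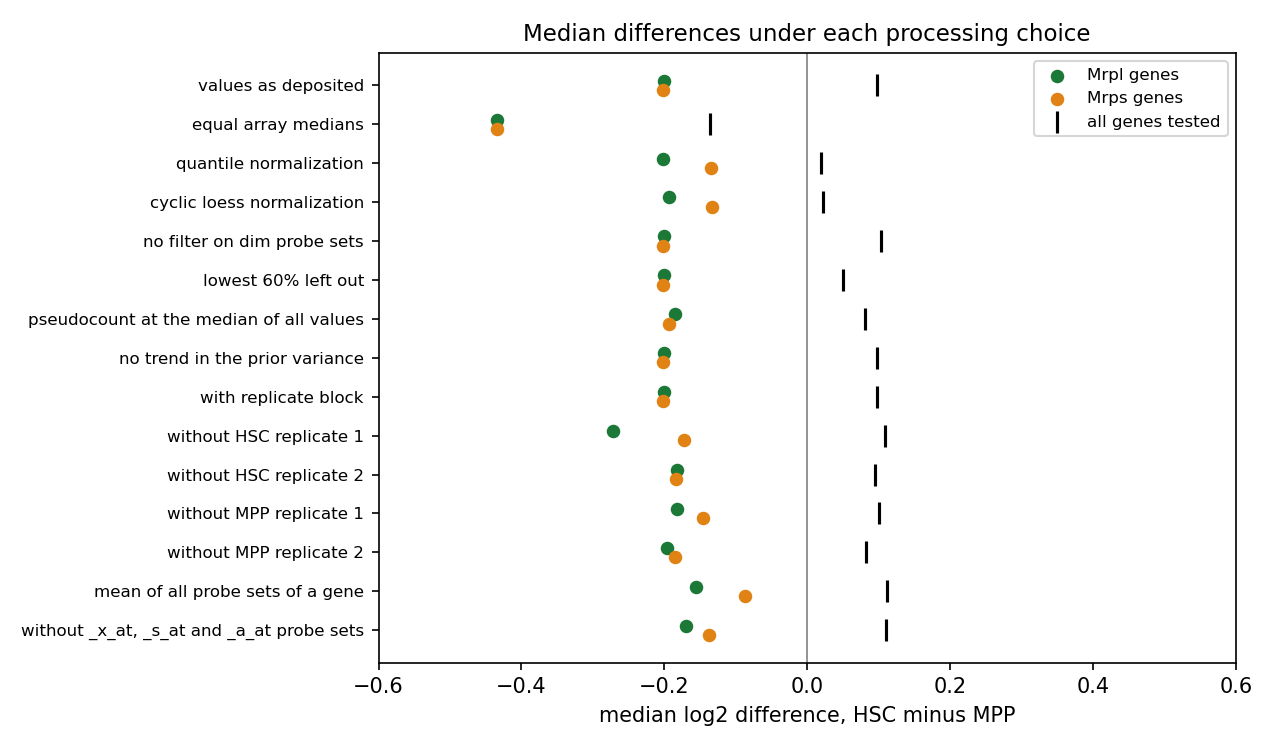
Median log2 difference, HSC minus MPP (x axis), of the Mrpl genes, the Mrps genes and all genes tested under each processing choice (y axis). Both subunit medians lie below 0 and below the median of all genes under every choice shown.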

How the data were processed

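Per the labels' protocols, total RNA was isolated with ISOGEN, and biotinylated cRNA from RNA equivalent to 3000 cells was made in 2 cycles of amplification, which favours 3' ends. The deposited values are probe set intensity on a linear scale, with each array scaled to one level (mean without the lowest and highest values near 100 on every array). No source used here names the software, and RNA content per cell is not seen in such values.

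The 64 control probe sets of 45101 were not used. The platform annotation named the genes, and an update to RefSeq changed 0 members. Values were analysed as log2(intensity + 6.01), the constant being 0.25 of the median. The lowest 40% of probe sets by mean were left out. The contrast of HSC minus MPP was fitted with limma 3.58.1 (R 4.3.3; lmFit, eBayes with a trend, 2-sided, 2 residual and 8.48 prior degrees of freedom), with Benjamini-Hochberg adjustment over 27022 probe sets at 0.05, tested on simulated data. A gene was represented by its brightest tested probe set. The members, lists and settings were chosen with earlier results of these data known. Named were all called members, the 6 highest and 6 lowest and 2 brightest of each subunit, members with a called probe set and others across 0, and Mrps18a, Mrps18b, Mrps18c, Mrps30, Mrps36 and Mrpl12 for their roles. Mrps35, Ppargc1a, the further genes of the stalk, protuberance and tunnel exit and the examples of the remaining members were named after their values were seen. Of the other lists, the called member or the one with the lowest p was named. Promoters came from RefSeq. Their motifs were chosen after the values were seen, and the NRF1 motif was shortened by 1 letter after a first count, which raised its share in members and in all genes.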

Additional observations from a re-analysis of the deposited data

How the results depend on the processing

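Member calls changed with scaling and replicates, while both subunit medians stayed below 0 under every alternative run. Equal array medians gave 13 genes and 16 probe sets lower with 0 and 0 higher, and medians of -0.43 in both subunits, 0.30 under the all-gene median as before. Quantile and cyclic loess normalization each gave 2 genes and 3 probe sets lower. The small subunit median was -0.13 under both, and large minus small was -0.067 and -0.061. Without the filter, 2 genes and 2 probe sets were lower and 0 higher. Without the variance trend 0 genes were called either way, with 1 probe set lower and 0 higher. Over all genes tested, 10.9% were called lower and 5.01% higher with equal array medians. These shares were 5.56% and 6.7% after quantile normalization, and 5.94% and 7.12% after cyclic loess. They were 2.65% and 3.16% without the filter, and 1.87% and 3.07% without the variance trend. Averaging a gene's probe sets gave a small subunit median of -0.087 and large minus small of -0.069. Leaving out probe sets named _x_at, _s_at or _a_at gave 0 genes higher and a small subunit median of -0.14. At that setting 7.44% of all genes tested were called higher. Deviations of same-numbered arrays had a Pearson r of 0.03, which with 2 pairs cannot show whether same-numbered samples were paired. A replicate block gave 8 genes and 9 probe sets lower, Mrps18c and Mrps28 among the genes, and 1 gene (Mrpl52) and 3 probe sets higher. With that block, 8.21% of all genes tested were called lower and 11.4% higher. Leaving out 1 array at a time gave 0 to 6 genes lower and 0 to 1 higher, 0 to 7 probe sets lower and 0 to 2 higher, a large subunit median of -0.27 to -0.18, a small one of -0.19 to -0.15 and a difference of -0.099 to 0.0012. A lone array was assumed to vary like the other group. Of 415 values of the 30 named genes, 372 stayed on their side of the threshold, 16 passed it newly and 27 no longer passed. No called value turned its sign. Among the 372, 24 uncalled values in 12 genes crossed 0, 8 of them with equal medians. The cause of these changes was not tested. Precision is limited by 4 arrays, and dim probe sets by their signal over background.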
